A study of Mus musculus with 4 samples.

Results

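RNA of Lgr5+ tumour cells that carried the tuft marker was set against RNA of Lgr5+ tumour cells that did not, on 1 array each; the 2 populations are called Lgr5+ tuft marker+ and Lgr5+ tuft marker- after their labels. The genes described are those whose signal was well above background on at least 1 of these 2 arrays, which held for 17501 of the 22911 genes with a named probe. Both populations were sorted from EpCAM+ epithelial cells of intestinal tumours in Lgr5CreERT2/+; Ctnnb1lox(ex3)/ox(ex3) mice, collected 14 days after tamoxifen, with IL17RB as the tuft marker. By the labels, both populations carried the same alleles, had the same treatment and were positive for Lgr5. CreERT2 was driven from the Lgr5 locus, so recombination began in Lgr5-expressing cells. Lgr5- cells of the same mouse model, sorted in the same way with and without the tuft marker, were measured on 1 array each and are used below only for comparison. The sources used here do not give the number of animals pooled, the stretch of intestine taken or the purity of the sorts. With 1 array per population there was no replicate, so no difference was tested, and every value describes these arrays.

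Tuft cells are scattered sensory cells of the intestinal epithelium. Their surface receptors signal through G proteins of the taste pathway to a phospholipase, to calcium release from internal stores and to the cation channel TRPM5, and the cells make IL-25, acetylcholine, leukotrienes and prostaglandins. IL17RB is a subunit of the receptor for IL-25, and the transcription factor POU2F3 is needed for tuft cells to form. Lgr5 is a Wnt target and a receptor for R-spondins that marks crypt base stem cells, and deletion of the exon flanked by loxP sites in Ctnnb1 yields a beta-catenin that escapes degradation.

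Values are levels, the log2 signal minus the 75th percentile of the array, so that 0 is the 75th percentile. Differences are tuft marker+ minus tuft marker- on the log2 scale. The error given with a difference is that of the scanner's reading of the spots, with a median of 0.21, and leaves out animals, sorts and labelling. A gene not well above background on 1 array, or below that array's lowest reliable level, has a difference that is only a lower limit, written as "at least". It is a limit only for the probe, floor and processing used. Other choices gave smaller differences for some such genes. Genes at least 2-fold apart are called higher or lower. In RNA of a sorted population, more cells of a kind and more RNA per cell cannot be told apart.

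The arrays followed the sort labels. Il17rb, the sorted marker, stood at -0.39 in Lgr5+ tuft marker+ cells and at -3.14 in Lgr5+ tuft marker- cells, a difference of 2.75 (error 0.29). A second probe of Il17rb differed by 1.35, and another background correction (normexp) brought the main probe to 1.25. Dclk1, a microtubule-associated kinase used as a tuft cell marker, stood at 4.20 and 0.72, and its 4 probes differed by 2.68 to 4.11. Trpm5 stood at 4.33 and 0.87, a difference of 3.46 (error 0.20). Each of these 3 genes was thus also above background in the tuft marker- cells. Lgr5 differed by 0.02 (error 0.21), at -0.80 in tuft marker+ and -0.81 in tuft marker- cells. Epcam (5.01 and 5.21), Ctnnb1 (5.06 and 4.95) and Actb (4.58 and 4.61) each differed by under 0.21 on the log2 scale. Of the other housekeeping genes taken as controls, Ppia differed by 0.15, Hprt by 0.39 (error 0.20) and Gapdh by 0.47 (probes -0.67 to 0.72). On the Lgr5+ arrays 60.2% of spots with the marker and 68.9% without it were well above background, and no spot was saturated. Detection was lower in Lgr5+ tuft marker+ cells (15326 genes) than in Lgr5+ tuft marker- cells (16893 genes).

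Across the 17501 genes, 1806 (10.3%) were at least 2-fold higher and 1433 (8.19%) at least 2-fold lower in Lgr5+ tuft marker+ cells. These shares are the ones to set beside the gene list counts of the Lgr5+ pair below. The larger differences ran upwards: 207 genes were at least 8-fold higher and 27 at least 8-fold lower, while 33 were at least 32-fold higher and 6 at least 32-fold lower. The median gene differed by 0.00 and the middle 50% of genes lay between -0.46 and 0.46. Of the genes above background on a single array, 608 were so in tuft marker+ and 2175 in tuft marker- cells. In all, 475 of the higher and 417 of the lower genes rest on a lower limit. The split of the called genes moved with the processing, from 55.8% higher here to 65.7% after scaling by the array median, 72.5% after normexp and 45.9% without a floor. Called genes were commonest at low signal, at 26.0% of the genes with a mean level between -2.37 and -0.75, and at 9.23% of those above 0.94. Probes of one gene often disagreed: of 572 higher genes with at least 2 measured probes, 363 had all probes above 0 and 162 had all past 2-fold, against 178 and 40 of 330 lower genes.

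**Figure D1:**
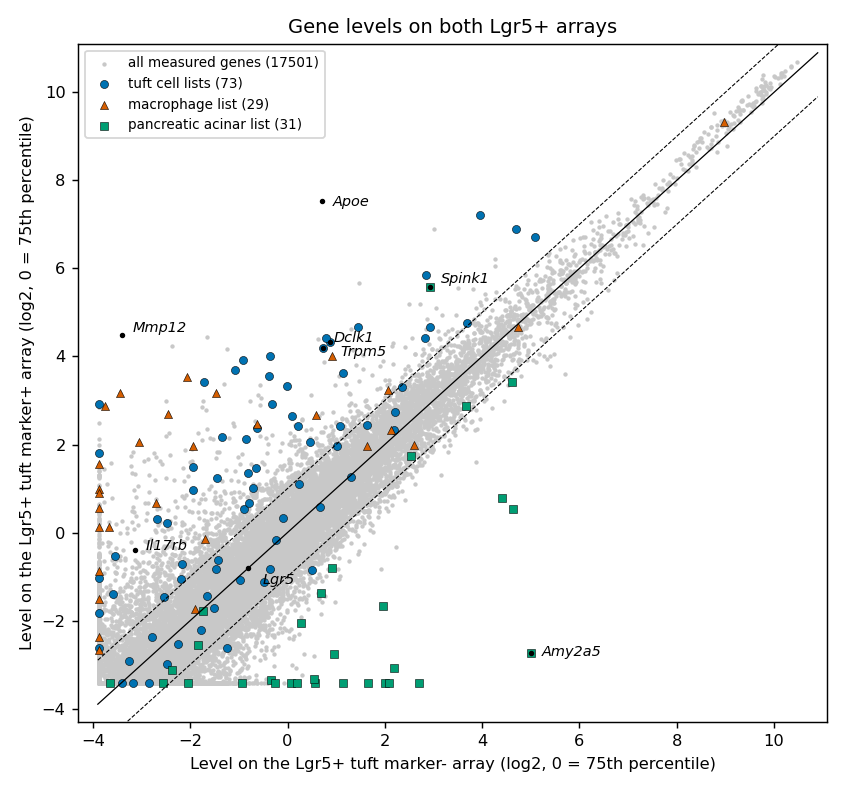
Each point is a gene, with its level on the Lgr5+ tuft marker+ array on the vertical axis and on the Lgr5+ tuft marker- array on the horizontal axis (log2, 0 = 75th percentile); values under an array's lowest reliable level are drawn at it, the solid line is equality and the dashed lines are 2-fold. Tuft cell genes (73) and macrophage genes (29) lie mostly above the lines, most pancreatic acinar genes (31) below them, and Lgr5 on the line of equality.

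Among genes above background on both arrays, Mmp12 and Apoe had the largest values. Mmp12, the macrophage elastase, stood at 4.48 in Lgr5+ tuft marker+ and -3.40 in Lgr5+ tuft marker- cells, a difference of 7.89 (error 0.34), although its 3 probes ranged from 0.78 to 7.89. Apoe, the apolipoprotein E gene, stood at 7.53 and 0.70, and both of its probes differed by over 32-fold, at 5.27 and 6.83. Sirpa, an inhibitory receptor of myeloid cells, differed by 6.62, Rassf2 by 6.60, while Rgs1, which dampens G protein signals in leukocytes, differed by 6.08. Tyrobp, an adaptor of immune receptors, differed by 5.61, the membrane linker gene Msn by 5.48 and the leukocyte integrin gene Itgb2 by 5.42. Gprc5c, an orphan receptor listed among tuft cell genes, differed by at least 6.79 at one probe and by -1.02 at another. Among genes above background in tuft marker+ cells alone, Lilrb4a (at least 6.73), Tlr12 (at least 6.72), C1qc (at least 6.64) and Clec10a (at least 6.35) led, and Retnla, Ptprc, Adgre1 and Spp1 followed at 5.39 to 5.87 or more. Under other processing Lilrb4a fell to 3.86, Tlr12 to 4.42, C1qc to 4.07 and Clec10a to 2.91. Retnla, Ptprc, Adgre1 and Spp1 fell to between 2.94 and 3.39. Of the 207 genes at least 8-fold higher, 18 are in a tuft cell list, 33 in a list of phagocyte, complement, protease, chemokine or class II genes, and 134 in none of the lists.

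The 4 lists of tuft cell genes held 85 genes, of which 73 were measured in the Lgr5+ pair. Of these, 46 (63.0%) were at least 2-fold higher in Lgr5+ tuft marker+ cells and 2 were lower, with a median difference of 1.59, against 10.3% and 8.19% of all genes and a median of 0.00. The higher members were unevenly spread over the lists. In the taste signalling list 6 of 14 measured genes were higher and 1 lower, and the median was 0.09. Plcb2, the phospholipase of taste transduction, stood at 3.69 in tuft marker+ and -1.07 in tuft marker- cells, a difference of 4.77 (probes 1.07 to 4.77). Itpr2, an IP3 receptor that releases calcium, differed by 2.68, with another probe at 0.65, whereas Itpr3 was level at -0.03. Gnat3, the G protein subunit gustducin, was above background in tuft marker+ cells alone and differed by at least 2.04. The G protein signalling regulators Rgs13 (3.43) and Rgs2 (2.22) were also higher. The taste receptor genes Tas1r1 (-0.50) and Tas1r3 (-0.48) differed by under 2-fold, and Gnat2, a transducin subunit, was lower (-1.37).

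Among tuft cell transcription factor genes, 5 of 13 were higher and 1 lower, with a median of 0.65. Spib, an ETS family factor, showed the largest difference, at 2.18 in tuft marker+ and -1.34 in tuft marker- cells (3.52, error 0.21). Nfatc1, a calcium-responsive factor, differed by 2.12 and the homeobox gene Hmx3 by 1.46. Pou2f3 stood at 0.54 and -0.90, a difference of 1.44 (error 0.21), and its second probe differed by 3.57. Gfi1b, a zinc finger repressor, differed by 0.79, and Sox4 was lower (-1.35). Kinase and adaptor genes of tuft cells were higher in 13 of 17 cases with none lower, at a median of 2.18. The adaptor gene Fyb differed by 4.38, the exchange factor gene Vav1 by 3.63, and the adaptor gene Sh2d7 by 2.56. Many genes of this group are also active in leukocytes.

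The group of surface, cytoskeletal and enzyme genes of tuft cells had 22 of 29 members higher and none lower, with a median of 2.19. Ly6g6d, a Ly6 family surface protein, stood at 3.92 in tuft marker+ and -0.91 in tuft marker- cells, a difference of 4.83 (probes 2.04 to 4.83). Siglecf, a sialic acid-binding lectin, differed by 3.94, and Avil, the actin-bundling advillin of the tuft cell apex, by 3.34. Kctd12 differed by 3.24, the tubulin gene Tuba1a by 3.01 and the microvillus protein gene Espn by 2.99. The alcohol and aldehyde dehydrogenase genes Adh1 and Aldh2 differed by 3.24 and 2.19. The keratin gene Krt18 was already high in both, at 6.72 and 5.08. Chat, the acetylcholine-synthesising enzyme gene, stood at -0.16 and -0.24 at its main probe, a difference of 0.08, which is within its error, and its 3 probes ranged from 0.08 to 1.19.

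Of 21 measured eicosanoid genes, 8 were higher in Lgr5+ tuft marker+ cells and none lower, with a median of 0.53. Alox5, 5-lipoxygenase, stood at 1.23 in tuft marker+ and -2.50 in tuft marker- cells (3.73), and its activating protein gene Alox5ap differed by 2.29. The cyclooxygenase genes Ptgs2 and Ptgs1 differed by 3.68 and at least 2.79, and Hpgds, a prostaglandin D synthase, by at least 3.04. Ltc4s, leukotriene C4 synthase, differed by 1.12. Lta4h, the leukotriene A4 hydrolase gene, and the prostaglandin E synthase genes Ptges, Ptges2 and Ptges3 differed by 0.14 or less. In the group around IL-25, 3 of 14 measured genes were higher, namely Il17rb, its partner receptor gene Il17ra (1.46) and the IL-33 receptor gene Il1rl1 (1.37). Il25 itself was not well above background in either Lgr5+ population.

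Promoters of several of these genes were read for short motifs, because POU2F3 binds the octamer ATGCAAAT and ETS factors of the Spi1 and Spib type bind GAGGAAGT. The window ran from 250 bases before to 50 bases after the start, in RefSeq sequence of GRCm38.p6, and both strands were searched, and neither motif contains the other. The octamer was found for 6 of 64 tuft list genes with a promoter in the table (9.38%), against 532 of 27025 genes in all (1.97%). Of those 6 genes, 3 were measured in the Lgr5+ pair, namely Ly6g6d, Kctd12 and Itpr3, which was level. The octamer was found for 5.03% of genes at least 8-fold higher, but for 1.88% of genes at least 2-fold higher. It was found for 2.36% of genes at least 2-fold lower and for 1.80% of all measured genes. The ETS-type motif was found for 20 of 159 genes at least 8-fold higher (12.6%), for 5.85% of genes at least 2-fold higher, and for 3.65% of all measured genes. On the other side it was found for 2.27% of genes at least 2-fold lower, but also for 2 of 25 genes at least 8-fold lower and 2 of 27 pancreatic acinar genes (7.41%). Shown are an octamer promoter of Ly6g6d (chr17:35081190-35081489, minus strand) and of Kctd12 (chr14:102982588-102982887, minus strand), and ETS-type promoters of Vav1 (chr17:57278850-57279149, plus strand) and C1qc (chr4:136892865-136893164, minus strand), the last for a complement gene that was at least 6.64 higher. Sequences run 5′ to 3′ on the strand of the gene, with the match in capitals, written as the reverse complement where it lies on the other strand; a match is a description of the letters and not of binding.
Ly6g6d: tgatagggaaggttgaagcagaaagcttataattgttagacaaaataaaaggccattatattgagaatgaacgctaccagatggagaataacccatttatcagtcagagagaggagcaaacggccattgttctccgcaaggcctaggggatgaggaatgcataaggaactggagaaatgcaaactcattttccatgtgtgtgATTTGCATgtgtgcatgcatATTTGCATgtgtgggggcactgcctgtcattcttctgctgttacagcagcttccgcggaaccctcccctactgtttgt
Kctd12: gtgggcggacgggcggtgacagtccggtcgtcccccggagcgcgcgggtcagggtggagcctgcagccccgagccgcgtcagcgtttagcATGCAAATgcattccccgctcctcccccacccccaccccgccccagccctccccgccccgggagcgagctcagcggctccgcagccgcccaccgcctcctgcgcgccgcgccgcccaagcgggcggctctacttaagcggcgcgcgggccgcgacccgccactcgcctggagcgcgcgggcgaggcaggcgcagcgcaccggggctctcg
Vav1: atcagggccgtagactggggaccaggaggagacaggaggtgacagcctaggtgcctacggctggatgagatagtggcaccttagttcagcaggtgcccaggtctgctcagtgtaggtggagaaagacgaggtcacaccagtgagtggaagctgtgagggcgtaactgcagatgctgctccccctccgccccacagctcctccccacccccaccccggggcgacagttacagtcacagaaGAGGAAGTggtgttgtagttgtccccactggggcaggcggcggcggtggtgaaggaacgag
C1qc: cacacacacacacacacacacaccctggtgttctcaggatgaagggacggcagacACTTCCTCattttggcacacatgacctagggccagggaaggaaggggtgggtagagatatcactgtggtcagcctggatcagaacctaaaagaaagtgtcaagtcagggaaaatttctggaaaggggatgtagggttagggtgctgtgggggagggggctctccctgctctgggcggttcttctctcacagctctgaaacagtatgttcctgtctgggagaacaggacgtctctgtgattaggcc

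Macrophage genes moved with the tuft cell genes. All 29 genes of the macrophage list were above background in Lgr5+ tuft marker+ cells and 18 in Lgr5+ tuft marker- cells, and 23 were at least 2-fold higher and none lower (median 3.11). Their summed linear signal, in units of the 75th percentile, was 781 in tuft marker+ and 553 in tuft marker- cells, and 142 and 50.8 without Itgam, whose bright probe supplied most of the sum. Adgre1, which encodes F4/80, stood at 1.57 in tuft marker+ cells and was not above background in tuft marker- cells (at least 5.43). C1qc, a complement C1q chain, stood at 2.88 and likewise was not above background without the marker. Aif1 (5.14), Cybb (5.11), Cx3cr1 (3.08), Cd68 (2.07) and the transcription factor gene Spi1 (at least 2.35) were higher as well. Itgam (9.32 and 8.97), Csf1r (4.68 and 4.73), Lyz2 (1.99 and 2.60), C1qb (2.33 and 2.12) and Mrc1 (-1.73 and -1.90) were not, although a second probe of Csf1r differed by 3.19. Lyz1, the Paneth cell lysozyme gene, is a near copy of Lyz2, so the value of Lyz2 is uncertain. Ptprc, which encodes CD45 and is shared by leukocytes and tuft cells, differed by at least 5.68 (probes 2.40 and 5.68). Whether leukocytes in the sorted fraction contributed to the tuft list values was not tested.

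**Figure D2:**
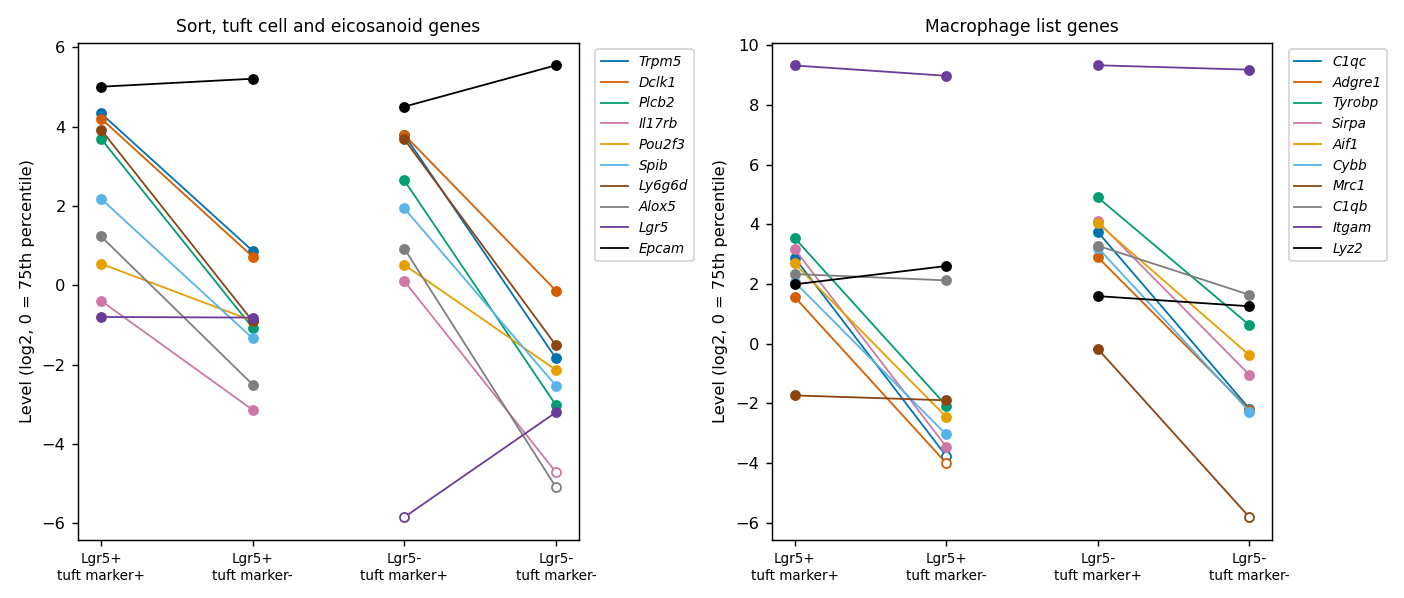
Levels (log2, 0 = 75th percentile) of sort, tuft cell and eicosanoid genes (left) and of macrophage list genes (right) on the 4 arrays, 1 array per population; open symbols are values not well above background and lines join the arrays of one Lgr5 class. Trpm5 and Dclk1 lie at 4.33 and 4.20 in Lgr5+ tuft marker+ cells, Lgr5 is level within Lgr5+ cells, and C1qc and Adgre1 fall below background in Lgr5+ tuft marker- cells while Itgam does not.

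Related immune groups showed the same direction. The receptors and adaptors of the Fc and ITAM group were higher in 10 of 14 cases (median 2.51), among them the Fc receptor gene Fcgr3, at 1.20 in tuft marker+ and -2.34 in tuft marker- cells (3.54), and the adaptor gene Lcp2 (3.77). Trem1 was bright and level (-0.05). Complement and lysosomal genes were higher in 18 of 23 cases (median 1.46); Cfd, complement factor D, stood at 1.58 in tuft marker+ and -3.63 in tuft marker- cells (5.21), and Ctss, cathepsin S, differed by 3.89. Chemokine and chemokine receptor genes were higher in 12 of 21 cases (median 1.38), led by Ccl8 (at least 5.12), Ccl3 (at least 4.74) and Ccl4 (4.46). Interferon-induced genes were higher in 12 of 24 cases (median 1.05), led by Rsad2 (3.28, with another probe at -0.84) and Gbp2 (3.21), with Ifit3 the farthest the other way (-0.94). Class II genes had 2 of 8 higher and 1 lower (median 0.73). H2-Eb1 (1.37) and H2-Ab1 (1.19, probes 0.07 to 1.26) were higher, and H2-Ob was lower (-1.26).

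Markers of other cells were mixed. T and NK cell genes had 1 of 18 members higher and none lower (median -0.22), and their summed signal was 45.3 in tuft marker+ and 60.0 in tuft marker- cells. Of 6 measured B and plasma cell genes 1 was higher, Jchain (at least 3.12), the joining chain of secreted antibodies. Stromal genes had 7 of 15 higher and 1 lower (median 0.85, summed signal 51.6 and 39.8). Fn1 differed by at least 5.26 at its main probe (probes 1.51 to 5.26), Vim by 4.68, Col3a1 by 3.19 and Dcn by 2.76. Postn was lower (-2.10, with another probe at 0.46). Dendritic cell genes had 2 of 9 higher, Clec10a (at least 6.35) and Itgax (at least 4.34, with another probe at 3.11), and 2 lower, with Flt3 (-1.35) farthest. Innate lymphoid and mast cell genes had 4 of 14 higher and 2 lower, and endothelial and glial genes 2 of 8 and 2. Neutrophil genes had 1 of 7 higher and 1 lower, and of 5 red cell genes none was either. Of all measured genes 10.3% were higher and 8.19% lower. Summed signals of these lists were 1.40 to 242 with the marker and 1.90 to 236 without it. The largest sums, of the neutrophil list, came mostly from Csf3r, which was bright and level (7.91 and 7.87). The part of these cells in other differences was not tested.

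Genes of absorptive enterocytes leaned upwards, and those of goblet and enteroendocrine cells downwards. Of 19 lipid absorption genes of enterocytes 9 were higher in Lgr5+ tuft marker+ cells and none lower (median 0.85). Apoa4, an apolipoprotein of chylomicrons, stood at 3.87 in tuft marker+ and 0.75 in tuft marker- cells (3.12, error 0.20), and Apoa1 at 4.30 and 2.17. The fatty acid uptake gene Cd36 differed by 3.66, and macrophages also express it. Apoc3 differed by 4.01, with its 3 probes ranging from -0.53 to 4.01. The fatty acid binding protein genes Fabp1 (1.79) and Fabp2 (1.95) were higher, and the acyltransferase genes Dgat1 (-0.40) and Mogat2 (-0.17) were not. In the brush border list 8 of 24 were higher and 2 lower (median 0.40), with the enteropeptidase gene Tmprss15 (at least 3.14), the peptide transporter gene Slc15a1 (2.52), the aminopeptidase gene Anpep (2.14), the fructose transporter gene Slc2a5 (2.09) and the alkaline phosphatase gene Alpi (1.28) on the higher side. The disaccharidase genes Mgam (0.05) and Sis (-0.32) were level, and the chloride exchanger gene Slc26a3 was lower (-1.68).

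Goblet cell genes had 6 of 19 lower and none higher (median -0.70). Clca1, a secreted mucus-processing protein, stood at 1.60 in tuft marker+ and 3.88 in tuft marker- cells (-2.27, error 0.20), and the mucus lectin gene Zg16 at 3.60 and 5.71. Retnlb differed by -1.85, while the membrane mucin gene Muc13 differed by 0.34. Paneth cell genes had 2 of 15 lower, Nupr1 (-1.38) and the matrilysin gene Mmp7 (-1.18). Enteroendocrine genes had 8 of 24 lower and 2 higher (median -0.69). Cck, cholecystokinin, was not above background in tuft marker+ cells and stood at -0.27 in tuft marker- cells, and the ghrelin gene Ghrl stood at -0.34 and 2.22 (-2.56). Gip differed by -1.76 and the factor gene Nkx2-2 by -1.89, with another probe at 0.22. Against them stood Pcsk1, a prohormone convertase (2.38), and Sct, secretin (2.01).

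Stem cell and Wnt genes differed little, in cells that were all sorted for Lgr5. Over all genes of the pair, 10.3% were higher and 8.19% lower. Of 28 measured stem cell genes none was higher and 2 were lower (median -0.26), Ascl2 (-1.16), a Wnt-driven factor of crypt base cells at -3.09 in tuft marker+ and -1.93 in tuft marker- cells, and Msi1 (-1.13, with another probe at 0.62). Wnt feedback and target genes had 3 of 22 higher and 1 lower (median 0.02), the higher ones being Sp5 (1.39), Dkk3 (at least 1.08) and Znrf3 (1.01, with another probe at -0.76). Genes of the Notch pathway had 5 of 19 higher and 2 lower (median 0.57). The fringe genes Lfng (at least 3.08) and Mfng (at least 2.50), the receptor gene Notch2 (1.94) and the feedback target Nrarp (1.79) were higher, and the ligand gene Dll4 was lower (-1.44). In the EGF and ERBB group 4 of 16 were lower and 1 higher. The receptor genes Erbb2 (-1.64, with another probe at -0.35) and Erbb3 (-1.35) were lower. So were the target genes Etv5 (-1.11) and Dusp4 (-1.84 or beyond), and the phosphatase gene Dusp6 was higher (1.39). BMP and TGF-beta genes had 8 of 20 higher and 2 lower, with Tgfbi (3.91) and Bmp2 (2.85) leading.

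Groups of growth and housekeeping genes had medians between -0.33 and 0.51. Mitosis genes had 4 of 32 lower and none higher (median -0.33), led by Kif11, a spindle motor, at -2.60 in tuft marker+ and -0.45 in tuft marker- cells. Replication genes had a median of -0.03, oxidative phosphorylation genes 0.14, proteasome genes 0.11 and ribosomal protein genes -0.15, where 4 of 84 were lower and 1 higher. The glycolysis list was higher in 5 of 23 cases (median 0.51). Among them were Slc2a1, the glucose transporter gene (1.25), and Pfkfb3 (1.64, with another probe at 0.67), while Gapdh stood at 7.26 and 6.78. Pan-epithelial genes had 2 of 32 higher and 1 lower (median 0.02), with the keratin genes Krt20 (1.23) and Krt23 (1.42) higher. Long non-coding RNA genes tended downwards, with 69 of 1407 higher (4.90%) and 187 lower (13.3%), against 10.3% and 8.19% of all genes. Olfactory, vomeronasal and bitter receptor genes, picked out after their values were seen, had 19 of 593 higher and 115 lower. In the Lgr5- pair, where more genes were detected with the marker (17157) than without it (15949), 204 of 654 such receptor genes were higher and 11 lower, and 275 of 1452 long non-coding RNA genes were higher and 65 lower, against 16.3% higher and 12.2% lower over all genes of that pair. The part of detection in these counts was not tested.

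**Figure D3:**
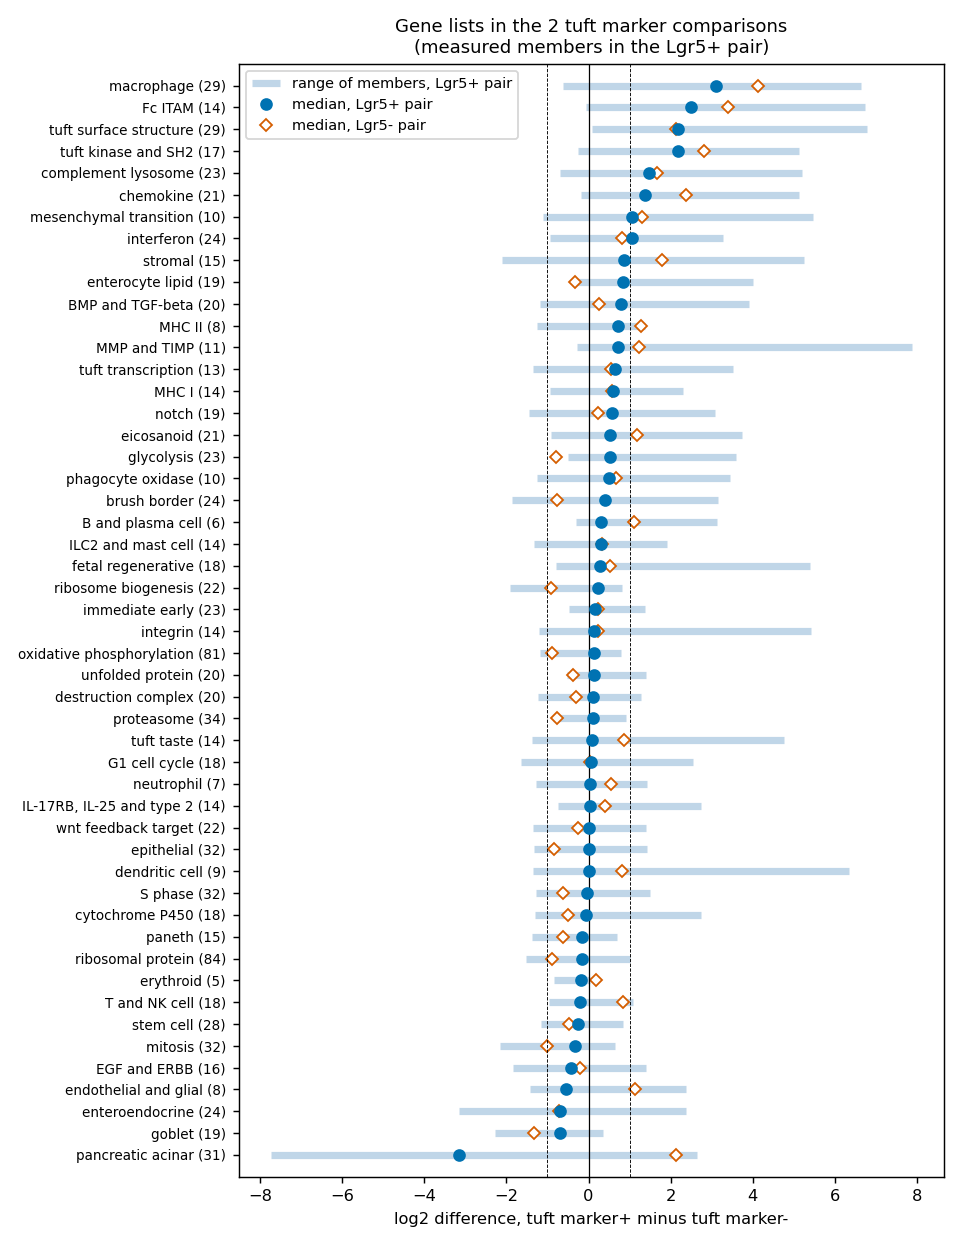
Median log2 difference, tuft marker+ minus tuft marker-, of 50 gene lists in the Lgr5+ pair (filled circles, with the range of the members as bars) and in the Lgr5- pair (open diamonds); the number of measured members in the Lgr5+ pair is in brackets and dashed lines mark 2-fold. The macrophage list (3.11) and the Fc and ITAM group (2.51) lie farthest right in the Lgr5+ pair, followed by the tuft surface (2.19) and tuft kinase (2.18) lists, while the tuft transcription factor (0.65) and taste (0.09) lists lie nearer 0, and the pancreatic acinar list lies at -3.16 in the Lgr5+ pair and 2.14 in the Lgr5- pair.

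The strongest lower values belonged to digestive enzymes of pancreatic acinar cells, a list made after these values were seen. Of 31 measured genes 23 were lower in Lgr5+ tuft marker+ cells and 1 was higher, with a median of -3.16, and 15 of the differences are lower limits. They made up 17 of the 27 genes that were at least 8-fold lower. Amy2a5, a pancreatic amylase, stood at -2.73 in Lgr5+ tuft marker+ and 5.01 in Lgr5+ tuft marker- cells (-7.74, error 0.32). Prss2, an anionic trypsinogen, was not above background in tuft marker+ cells and stood at 2.70 in tuft marker- cells, so its difference was -6.13 or beyond. The same held for the lipase gene Pnlip, at 1.66 in tuft marker- cells, for Reg2, at 2.08, and for the carboxypeptidase gene Cpb1, whose difference was -5.43 or beyond. The trypsinogen Try5 (-5.25), the chymotrypsinogen Ctrb1 (-4.11), the carboxypeptidase Cpa1 (-3.73) and the elastase Cela2a (-3.64) were above background on both arrays. Amylase and trypsinogen genes have near-identical copies, so the values of single members are uncertain. The acinar transcription factor gene Bhlha15 was level (-0.04) and Ptf1a was at background, while Spink1, the trypsin inhibitor gene, which the intestine also expresses, was higher (2.65). In Lgr5- cells the direction turned: Amy2a5 stood at 6.07 in tuft marker+ and 3.04 in tuft marker- cells, and Prss2 at 2.79 and -0.50. Of the 29 list genes measured in both pairs, 22 were lower in the Lgr5+ pair and higher in the Lgr5- pair. The same held for 334 of all 16757 genes measured in both pairs. Over the 4 arrays the Lgr5+ tuft marker+ array was thus the low one for Amy2a5, Prss2, Try5, Reg2, Cpb1, Pnlip, Ctrb1, Cpa1 and Cela2a. Whether the enzyme RNA came from tumour cells or was carried into the samples was not tested. A pair of promoters is shown for the E-box CACCTG, the kind of site bound by acinar basic helix-loop-helix factors. The E-box was found for 15 of 27 acinar list genes (55.6%) and 22.6% of all genes, searched as above. It was also found for 7 of 20 stem cell genes (35.0%) and 21 of 64 tuft list genes (32.8%). The TATA box TATAAA was found for 13 of 27 acinar list genes (48.1%) and 15.7% of all genes. Whether either site had a part in the differences was not tested. The promoters shown are those of Cpb1 (chr3:20275684-20275983, minus strand) and Prss2 (chr6:41521526-41521825, plus strand) in GRCm38.p6, with the E-box in capitals.
Cpb1: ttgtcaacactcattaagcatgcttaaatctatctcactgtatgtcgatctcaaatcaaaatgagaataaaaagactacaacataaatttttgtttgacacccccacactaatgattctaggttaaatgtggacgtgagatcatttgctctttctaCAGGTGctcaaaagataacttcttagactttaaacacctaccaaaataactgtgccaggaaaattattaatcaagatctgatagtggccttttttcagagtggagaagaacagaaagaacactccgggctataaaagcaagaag
Prss2: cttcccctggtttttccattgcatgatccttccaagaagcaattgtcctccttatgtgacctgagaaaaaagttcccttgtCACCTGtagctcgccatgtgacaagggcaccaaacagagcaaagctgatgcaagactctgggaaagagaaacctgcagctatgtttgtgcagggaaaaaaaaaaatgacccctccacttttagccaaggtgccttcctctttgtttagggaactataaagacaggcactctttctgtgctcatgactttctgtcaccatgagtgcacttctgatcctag

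**Figure D4:**
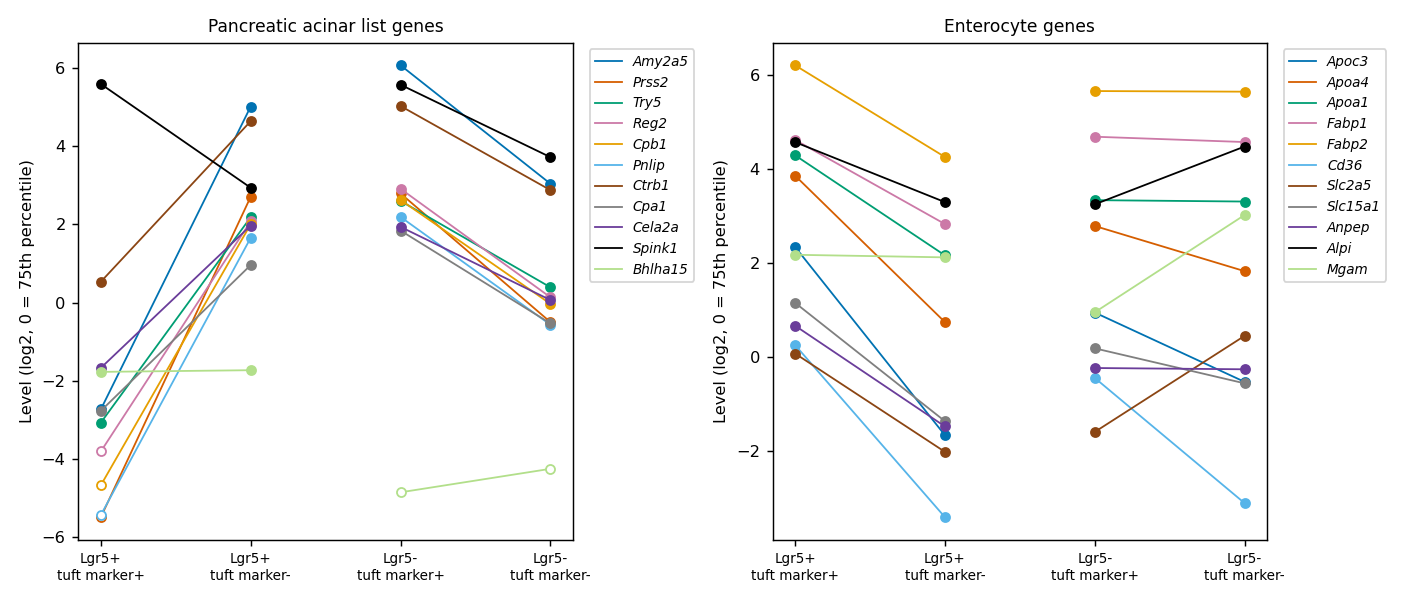
Levels (log2, 0 = 75th percentile) of pancreatic acinar list genes (left) and enterocyte genes (right) on the 4 arrays, 1 array per population; open symbols are values not well above background and lines join the arrays of one Lgr5 class. Amy2a5 lies at -2.73 in Lgr5+ tuft marker+ cells and above 3 on the other arrays, and Slc2a5 slopes in opposite directions in the 2 Lgr5 classes.

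The tuft marker sort within Lgr5- cells used 2 other arrays and gave 2922 higher (16.3%) and 2192 lower (12.2%) genes among 17911. Among 16757 genes measured in both pairs, 796 were higher in both, which is 46.4% of the genes higher in the Lgr5+ pair and 29.3% of those higher in the Lgr5- pair. Shared lower genes were fewer, at 234, or 16.9% and 11.0% of the lists. More of the genes lower in the Lgr5+ pair were higher in the Lgr5- pair (334, 24.1%) than lower there, while detection with the marker was the lower of the pair in Lgr5+ and the higher in Lgr5- cells. Tuft list genes were higher in both pairs for 44 of the 72 measured in both, and macrophage genes for 21 of 29. Medians of several housekeeping groups lay nearer 0 in the Lgr5+ pair: ribosomal protein genes had medians of -0.15 in the Lgr5+ pair and -0.88 in the Lgr5- pair, oxidative phosphorylation genes 0.14 and -0.89, and pan-epithelial genes 0.02 and -0.85. The difference between the pairs was not tested, since each pair is 1 array against 1.

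Single genes that stood apart between the pairs were taken from those above background on all 4 arrays. Slc2a5 led on one side, at 0.08 in Lgr5+ tuft marker+ and -2.01 in Lgr5+ tuft marker- cells, against -1.59 and 0.46 in the Lgr5- populations with and without the marker. Entpd7 differed by 2.14 in the Lgr5+ pair and -1.64 in the Lgr5- pair, Acrbp by 1.91 and -2.16, and Cmss1 by 1.20 and -2.88. On the other side stood 5 pancreatic enzyme genes with Gm21637, St8sia2 and the olfactory receptor gene Olfr521, the last at -3.35 and 2.18. At the probe used, Gm21637 (-3.62) and St8sia2 (-4.02) lay under the lowest reliable level in Lgr5+ tuft marker+ cells. Their differences in the Lgr5+ pair are therefore lower limits.

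**Figure D5:**
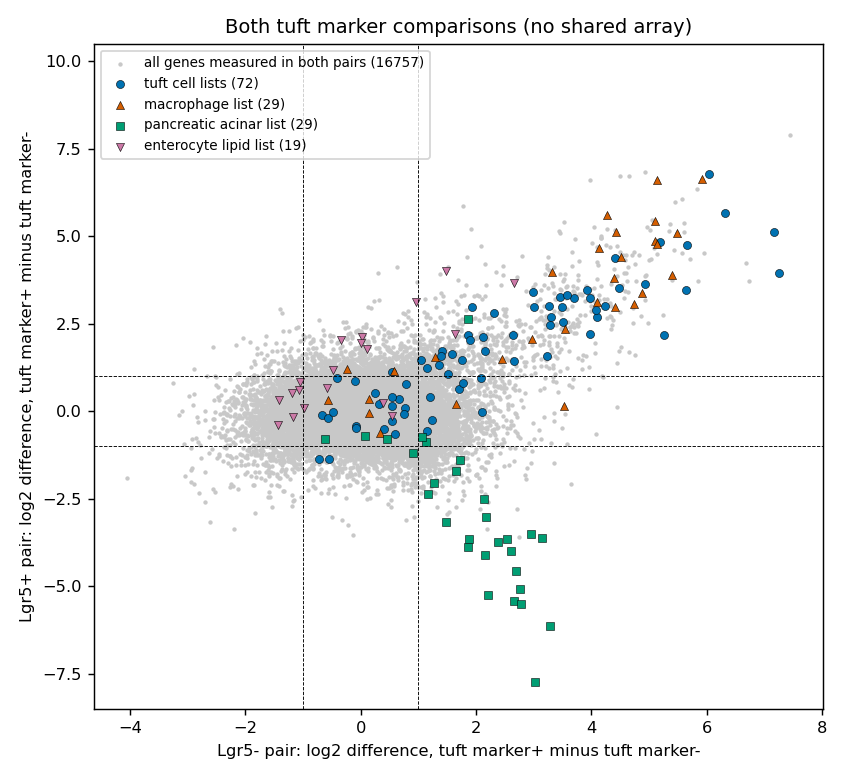
Each point is a gene measured in both comparisons (16757), with its log2 difference, tuft marker+ minus tuft marker-, in the Lgr5+ pair on the vertical axis and in the Lgr5- pair on the horizontal axis; dashed lines mark 2-fold. Tuft cell (72) and macrophage (29) genes lie mostly at upper right, and pancreatic acinar genes (29) mostly at lower right.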

How the data were processed

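Per the file headers, the deposited intensity of each spot was read, background-subtracted and detrended with Agilent Feature Extraction 12.0.3.1. A different release, 11.5.1.1, is named in the submitters' processing notes. Per the labels' protocols, 13 ng of total RNA was amplified and labelled with Cy3 for each array. The authors also deposited a table of the same intensity values, multiplied by 1 constant per array. All 4 arrays lay on 1 slide and were read in 1 scan.

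From the 59305 non-control spots, log2 of the deposited processed signal minus the array's 75th percentile was taken. Spots marked as outliers (91 to 122 an array) were left out afterwards. Copies of a probe were averaged. A gene counted as above background on an array when any of its probes did. Of 56604 probes 32994 were named through unversioned accessions in the RefSeq gene table (GRCm38.p6), and 23610 were not named. The array grid is annotated on mm9, so coordinates are given for RefSeq promoters only. Each gene was taken from the probe brightest on average over the arrays, and a floor at the lowest level among probes well above background (-3.43 and -3.87 in Lgr5+ tuft marker+ and tuft marker- cells, -3.67 and -3.70 in the Lgr5- populations) was set before differences. Depth does not apply to arrays, and their number limits the precision. No sample-level column was left unused (0). As a check of the code, all 200 genes changed in simulated arrays of the Lgr5+ pair (16893 genes run) were called in their direction. The simulation copied the Lgr5+ tuft marker- array with its detection and added little noise. It changed only genes away from low signal, and by well over 2-fold. It therefore cannot show how reliable the calls on the real arrays are.

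The members, gene lists and tests were chosen with earlier results of these data known, and the pancreatic list was added after the values were seen. Named genes were the sort and control genes, the 10 largest differences each way above background on both arrays, the 8 largest lower limits each way, 4 leading members and 1 opposite member of each list, and 8 genes each way between the pairs; the other list members were named after their values were seen. Python 3.11.15, pandas 2.3.3, numpy 2.4.6 and matplotlib 3.10.9 were used, with limma 3.58.1 in R 4.3.3 for normexp. Some single genes are not reported here.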

Additional observations from a re-analysis of the deposited data

Results flagged for a closer look

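Medians of some groups, among them the 5 given here, pointed one way with the tuft marker within Lgr5+ cells and the other way within Lgr5- cells. Each pair is 1 array against 1, so these differences between the pairs were not tested. The median of the enterocyte lipid genes was 0.85 within Lgr5+ and -0.34 within Lgr5-, that of the brush border genes 0.40 and -0.76, that of the glycolysis genes 0.51 and -0.79, and that of the endothelial and glial genes -0.54 and 1.13. Within Lgr5- the medians of ribosomal protein (-0.88), oxidative phosphorylation (-0.89), proteasome (-0.76) and pan-epithelial genes (-0.85) were also below 0. The brush border and glycolysis medians there lay close to these, and the enterocyte lipid median lay nearer 0. Their turn between the pairs is therefore not particular to these groups. The pancreatic acinar list lay at -3.16 within Lgr5+ and at 2.14 within Lgr5-. Under other processing the endothelial and glial median within Lgr5+ ran from -0.96 to 0.34 and the enterocyte lipid median within Lgr5- from -0.57 to 0.05, so both crossed 0.

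Among single genes, the amylase genes stood at -7.74 and 3.03 (Amy2a5), -3.63 and 2.53 (Amy1) and -4.00 or beyond and 2.61 (Amy2b) within Lgr5+ and within Lgr5-. The protease genes followed with Try5 (-5.25 and 2.21), Ctrb1 (-4.11 and 2.15), Cpa1 (-3.73 and 2.37) and Cela2a (-3.64 and 1.87). At a lower limit within Lgr5+ were Prss2 (-6.13 and 3.29), Cpb1 (-5.43 and 2.66), Try4 (-4.56 and 2.69), Cela3b (-3.89 and 1.85), Prss3 (-3.62 and 3.14), Reg2 (-5.51 and 2.77) and Pnlip (-5.08 and 2.76). Genes outside the pancreas were Gm21637 (-3.58 or beyond and 2.74) and Olfr521 (-3.35 and 2.18).

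Of the probes with no gene name, 12001 exceeded background clearly on the Lgr5+ tuft marker+ array. Of the 15312 measured in the Lgr5+ pair, 1048 were at least 2-fold higher and 1617 at least 2-fold lower. Among named genes, each counted once, 10.3% were higher and 8.19% lower.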

How the results depend on the processing

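No paired analysis was possible because each group has 1 array. No list median or named gene called 2-fold apart turned its direction under the alternatives. Subtracting the array median gave 3421 lower genes in the Lgr5- pair. Normexp, run on the median signal because the mean signal is not among the columns and so chosen after seeing the data, gave 661 higher and 251 lower genes in the Lgr5+ pair and 947 and 787 in the Lgr5- pair. The authors' scaled values gave 4426 higher and 1144 lower genes in the Lgr5- pair. Counting spots that were positive and significant gave 2841 lower genes in the Lgr5+ pair and 4385 higher in the Lgr5- pair. Without a floor 2234 genes were lower in the Lgr5+ pair. Asking every probe of a gene with at least 2 measured probes to pass 2-fold gave 162 higher and 40 lower of 5638 genes in the Lgr5+ pair, and 294 and 342 of 5754 in the Lgr5- pair. The share of higher among called genes in the Lgr5+ pair was 55.8%, 65.7% with the array median, 62.1% after quantile normalization, 72.5% after normexp, 62.3% with the authors' values, 46.7% with positive and significant spots, 45.9% without a floor and 80.2% when every probe had to pass; in the Lgr5- pair it was 57.1%, and 37.0%, 79.5% and 46.2% with the array median, the authors' values and every probe. The other counts stayed within 1.5 times. Of 500 medians of the 50 lists in the Lgr5+ pair under alternatives, 443 moved by no more than the median scanner error of a single gene. That error is not an error of a list median. Of the same 500 medians 18, in 8 lists, crossed 0, as did 10, in 7 lists, in the Lgr5- pair. The causes were not tested. Signal over background limits the values of dim genes: Il17rb ranged from 1.25 to 2.85, Mmp12 from 4.11 to 7.99, C1qc from 4.07 to 6.75 and Prss2 from -8.19 to -3.77 over the settings.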

Other observations

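Of 18 measured genes of the G1 phase of the cell cycle 3 were higher and 3 lower in Lgr5+ tuft marker+ cells (median 0.05), against 10.3% and 8.19% of all genes. The higher ones were inhibitors: Cdkn1c, the gene for p57, stood at 0.23 in Lgr5+ tuft marker+ and -2.31 in Lgr5+ tuft marker- cells (2.53), Cdkn1a differed by 1.47 (probes 0.10 and 1.47) and Cdkn2d by 1.11. Another inhibitor gene, Cdkn2b, was lower (-1.21), as were the cyclin gene Ccne1 (-1.26) and the kinase gene Cdk2 (-1.64 or beyond), and the inhibitor genes Cdkn1b (0.48) and Cdkn2c (0.36) differed by under 2-fold. Cdkn2a had only a limit (-0.21 or beyond).

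Of 10 measured genes of mesenchymal transition 6 were higher and 1 lower, where 10.3% of all genes were higher and 8.19% lower. Zeb2, a repressor of epithelial genes that macrophages also express, differed by 4.56 (probes 0.01 to 5.68), and the receptor kinase gene Axl by 1.89. In the list of fetal-like and regenerative epithelial genes 6 of 18 were higher and none lower (median 0.27). Among the higher ones were Spp1 (at least 5.39), Il1rn (3.60), Anxa1 (at least 3.12) and Sprr1a (2.24), while Areg differed by -0.79. Whether macrophages contributed to these values was not tested. Immediate early genes, which respond to cell dissociation, had 2 of 23 higher, Dusp1 (1.38) and Egr2 (1.16), which is near the share of all genes. The class I genes Nlrc5 (2.30, with another probe at -0.82), Tap2 (1.46, with another at -0.80) and B2m (1.27) were higher, and Psmb9 differed by -0.93.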
